A study of Danio rerio with 6 samples.

Results

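The genes described here encode the subunits of the receptors for GABA, glycine and glutamate in larvae of the zebrafish, some of them raised in a leachate of tire wear particles (TWP). They were taken by symbol alone: the GABA-A (gabr), GABA-B (gabbr), glycine (glra, glrb), AMPA (gria), NMDA (grin), kainate (grik), delta (grid) and metabotropic glutamate (grm) receptor genes, leaving out 2 rows of scaffold genes. The rule took 67 of the 24826 genes in the table: 19 GABA-A, 3 GABA-B, 7 glycine, 8 AMPA, 10 NMDA, 5 kainate, 3 delta and 12 metabotropic. The table's own description names a GABA, glycine or glutamate receptor for 67 of the 67. All 67 passed the filter on low counts. The leachate group, hereafter TWP 700, held 3 pools of wild-type larvae exposed to the leachate named 700. The control group held 3 pools of wild-type larvae kept in the surfactant control, 0.001% bovine serum albumin. The labels give no albumin for the leachate pools. The sample titles use 700 as a treadwear grade and the design text as a concentration, and 700 serves below as a name alone. In both groups 200 eggs per dish were exposed from 4 to 168 h after fertilization, moved to clean dishes at 72 h, and pooled as 80 larvae per sample. The labels call the samples of a group biological replicates.

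GABA and glycine are the main inhibitory transmitters of the vertebrate nervous system, and glutamate is the main excitatory one. GABA-A and glycine receptors are chloride channels built from subunits around a pore. AMPA, NMDA and kainate receptors are cation channels opened by glutamate, while GABA-B and metabotropic glutamate receptors act through G proteins. Zebrafish keep a pair of copies, a and b, of many of these genes. Because each sample is a pool of whole larvae, fewer cells of a type and less RNA per cell cannot be told apart in any result below.

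Read counts summed to 37460304 to 42773836 per TWP 700 pool and to 37030725 to 48431952 per control pool, so that 3 reads equal 0.0623 to 0.0817 CPM. Levels of a gene in each pool are CPM, the reads of a gene scaled to the TMM-adjusted size of its library. Levels compared between genes are TPM, which are also set per length of transcript and are given as deposited. Summed levels of lists and ratios of subunits are TPM too, unless CPM is named. The TPM are not scaled by TMM, whose factors were 1.02 to 1.11 in TWP 700 and 0.882 to 0.994 in control pools. The receptor genes together had a TWP 700 to control ratio of 1.15 in TPM and 1.03 in CPM. TWP 700 replicate 1 and control replicate 2 stood apart from the other pools on the second principal component. These 2 pools also had relatively more reads from long genes: the median log2 deviation of the longest 10% of genes was 0.10 and 0.20, against -0.12 to -0.04 in the other 4 pools. Receptor genes are long, with a median relative length at the 77.3rd percentile of the genes tested. The neuron and synapse markers had a summed level of 485 to 681 TPM in TWP 700 pools and 396 to 502 TPM in control pools, ranges that overlap.

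Few of the receptor genes passed the test. Of the 67, 1 was called lower in TWP 700 (glra4b, a glycine receptor subunit) and 0 were called higher, at an adjusted p under 0.05 in edgeR's quasi-likelihood test. That is 1.49% of the receptor genes. The same test called 15.2% of all 23761 genes, 7.87% higher and 7.29% lower, and 16.1% of the 20362 protein-coding genes within the receptor genes' range of CPM. With no adjustment, 7 receptor genes had a p under 0.05, 5 higher and 2 lower, where 29.8% of all genes did. DESeq2 called 0 receptor genes higher and 2 lower (glra4b and gabrr3a), against 9.38% and 8.96% of all genes. In 11 receptor genes the 3 TWP 700 values did not overlap with the 3 control values, which is 16.4% of them, where 35.1% of all genes were separated in this way. The 7 that lay higher in TWP 700 included gabra6a, gabrb4, glra3, glrba, grin2bb and grik5. The 4 that lay lower were gabrr3a, glra4b, grik1a and grm6b. The comparable shares of all genes were 17.9% and 17.1%.

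The intervals bound the size of the differences. The 95% interval of the fold change lay within 1.5-fold either way in 48 of the 67 receptor genes, where it did so in 39.0% of all genes tested. It lay within 2-fold either way in 64 of 67, where 74.6% of all genes did. The 3 genes whose interval reached beyond 2-fold were glra4b and the GABA-A rho genes gabrr3a and gabrr2b. On the log2 scale the intervals of glra4b and gabrr3a lay wholly below 0, at -1.73 to -0.70 and -1.75 to -0.22. Those of 5 receptor genes lay wholly above 0, among them gabrr1 (0.14 to 0.90) and grik5 (0.057 to 0.61). The intervals are not adjusted for the number of genes, and of these genes edgeR called glra4b alone. The median size of the log2 fold change, whatever its sign, was 0.13 in the receptor genes and 0.25 over all genes, with median SEs of 0.15 and 0.17. Replicates of a receptor gene varied by a median coefficient of variation of 10.3% in TWP 700 and 10.9% in control pools. The median log2 fold change of the receptor genes was 0.07, with 40 genes above 0 and 27 below, and that of all genes was -0.0026.

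**Figure D1:**
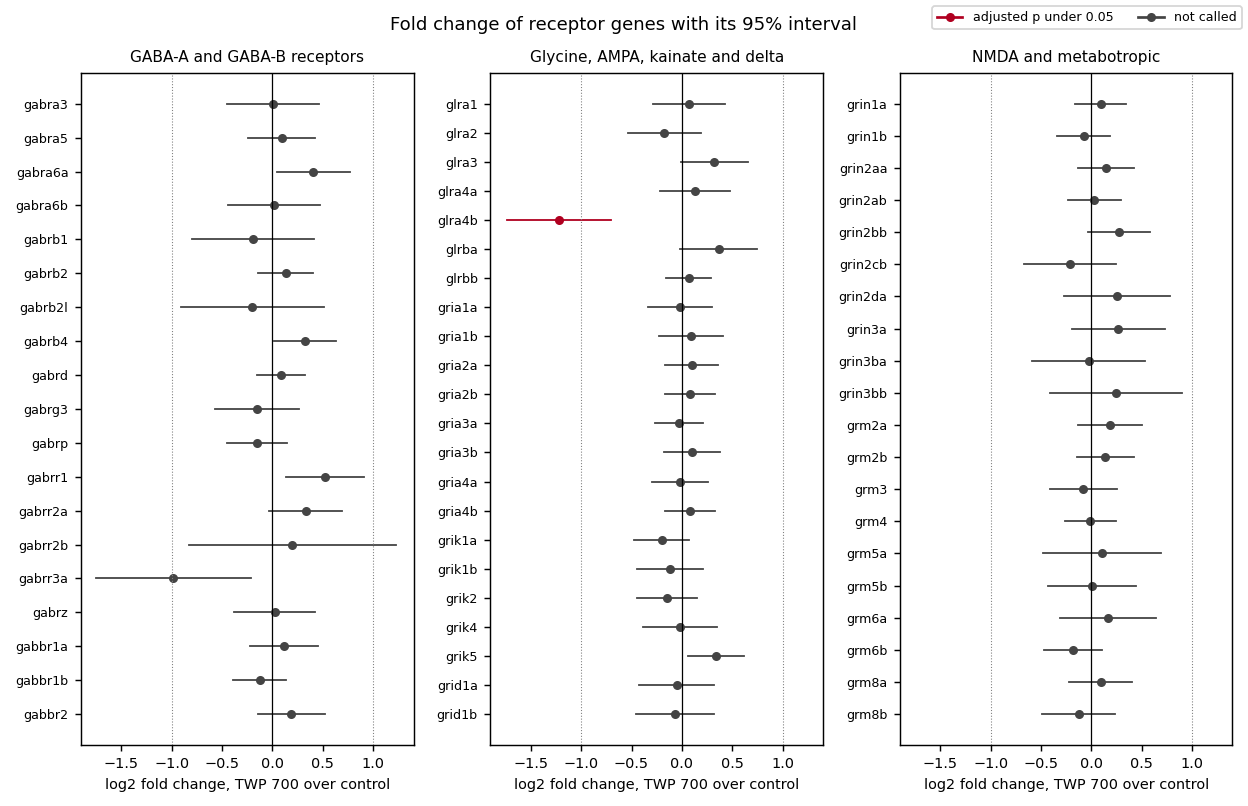
Log2 fold change of TWP 700 over control for 61 receptor genes (points) with its 95% interval (lines), in 3 panels by family. Dotted lines mark 2-fold either way, red marks the gene called, and glra4b at -1.22 is the only gene in red.

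The glycine receptor genes held the 1 call. Glycine receptors of the spinal cord and brainstem join alpha subunits, which bind glycine, with a beta subunit, which anchors the channel to the scaffold protein gephyrin. The alpha gene glra4b (gene ID 192125) had 1.1, 1.86 and 1.71 CPM in TWP 700 pools, against 3.97, 3.32 and 3.54 CPM in control pools. Every TWP 700 pool lay below every control pool. These levels rest on 49, 81 and 65 reads in TWP 700 pools and 191, 122 and 146 reads in control pools. glra4b fell by 1.22 on the log2 scale in TWP 700 (SE 0.24, 95% interval -1.73 to -0.70, edgeR adjusted p = 0.00596), with means of 1.56 ± 0.399 CPM in TWP 700 and 3.61 ± 0.328 CPM in control pools (SD, n = 3 each). It was called lower under all 18 alternatives tried, which include an adjusted p under 0.01 and leaving out TWP 700 replicate 1 and control replicate 2 together. Over these alternatives its adjusted p ran from 4.5e-05 (DESeq2) to 0.0342 (without control replicate 1), and its log2 fold change from -1.36 to -1.02.

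Its copy glra4a (gene ID 83413) had 4.66, 4.86 and 4.31 CPM in TWP 700 pools and 4.11, 4.17 and 4.36 CPM in control pools. These values overlap, and the log2 fold change was 0.13 ± 0.16 (SE, 95% interval -0.22 to 0.48, edgeR adjusted p = 0.635). In CPM, the ratio of glra4b to glra4a within a pool was 0.237, 0.382 and 0.396 in TWP 700 pools. In control pools it was 0.965, 0.797 and 0.811. In TPM, which are set per length, the ratio was 0.299, 0.487 and 0.506 in TWP 700 pools. In control pools it was 1.24, 1.02 and 1.04, with glra4b above glra4a. The ratios did not overlap on either scale. The exact permutation test gave a two-sided p of 0.1 on both, the smallest that 3 against 3 allows. This ratio was chosen after its values were seen. In adult mammals glra1 is the main alpha subunit of the spinal cord, and glra2 is known as an embryonic form. The gene glra1 had 14.4, 13.4 and 10.8 CPM in TWP 700 pools and 14.7, 11.8 and 10.2 CPM in control pools, with no separation. Its log2 fold change was 0.07 ± 0.16 (SE), and those of glra2 and glra3 were -0.17 ± 0.16 and 0.32 ± 0.15.

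The beta subunit gene glrbb (gene ID 445193) was the most abundant glycine receptor gene at a mean of 16.8 TPM over the 6 pools. It had 29.7, 33.7 and 32.5 CPM in TWP 700 pools and 31.6, 29.2 and 30.8 CPM in control pools. The groups overlap, with a log2 fold change of 0.07 ± 0.10 (SE, edgeR adjusted p = 0.72). The other beta copy, glrba, lay higher in every TWP 700 pool, at 5.92, 7.36 and 6.44 CPM against 5.46, 5.77 and 4.1 CPM in control pools, but did not pass the test (log2 fold change 0.36 ± 0.17, edgeR adjusted p = 0.19). Some markers of cell types that whole larvae also hold differed between the same groups, where 15.2% of all genes were called, 7.87% higher and 7.29% lower. Of 15 photoreceptor markers, 7 were called lower and 3 higher in TWP 700, and they summed to 1447 to 1910 TPM in TWP 700 pools and 1996 to 2510 TPM in control pools. Of 11 myelinating glia markers 3 were called lower, with sums of 232 to 270 TPM in TWP 700 pools and 257 to 309 TPM in control pools. Of 16 genes listed as inner retina markers 3 were called higher and 1 lower. None of the markers in the table was at 0 in any pool, but this holds for every gene in the table and says nothing about these tissues. The part of these tissues in the glra4b difference was not tested.

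**Figure D2:**
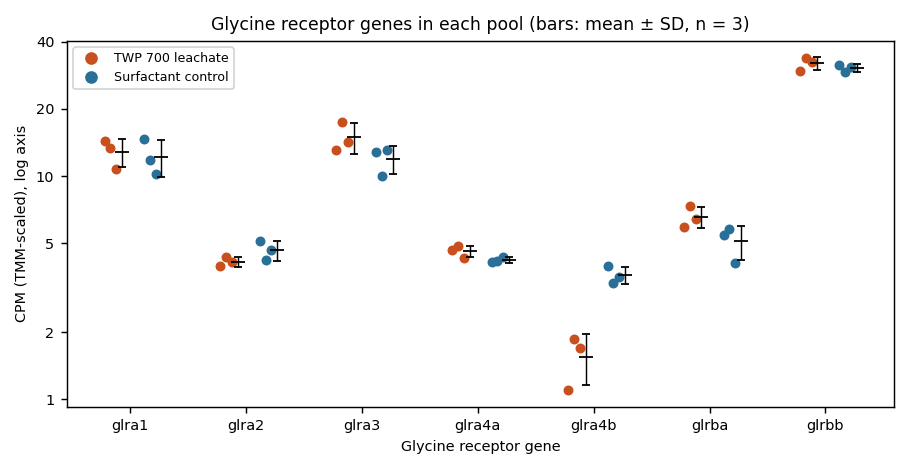
Level of the 7 glycine receptor genes in each pool, in TMM-scaled CPM on a log axis, with TWP 700 pools in orange to the left of control pools in blue. Bars are the mean ± SD of 3 pools. The 3 TWP 700 pools lie below all control pools for glra4b, at 1.1 to 1.86 CPM against 3.32 to 3.97 CPM, and the values of glra4a overlap.

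Of the 19 GABA-A receptor genes 0 were called in either direction by edgeR, with 5 at an unadjusted p under 0.05, and their median log2 fold change was 0.08. limma-voom also called 0, and DESeq2 called 1 lower, gabrr3a. GABA-A receptors usually join alpha and beta subunits with a gamma or a delta subunit. Delta-containing receptors are known in mammals for sitting outside synapses and answering to low GABA. The delta gene gabrd (gene ID 571422) was the most abundant, at a mean of 19.0 TPM, with 24.5, 27.9 and 28.5 CPM in TWP 700 pools and 26.7, 25.1 and 24.5 CPM in control pools. The groups overlap, and the log2 fold change was 0.08 ± 0.11 (SE, edgeR adjusted p = 0.654).

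The 5 alpha genes, whose subunits form the GABA site together with beta, had log2 fold changes of 0.01 to 0.41. The largest of the alpha differences was that of gabra6a, a cerebellar granule cell subunit in mammals, with 4.62, 4.36 and 4.89 CPM in TWP 700 pools and 3.59, 3.59 and 3.27 CPM in control pools. The groups do not overlap, but the difference did not pass the test (edgeR adjusted p = 0.122).

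The 5 beta genes had a median log2 fold change of 0.13. The groups did not overlap for gabrb4, with 9.97, 10.5 and 8.49 CPM in TWP 700 pools and 8.35, 7.79 and 7.10 CPM in control pools, and a log2 fold change of 0.32 ± 0.14 (SE, edgeR adjusted p = 0.149). Control replicate 1 lay just below the lowest TWP 700 pool. The beta genes gabrb1, gabrb2 and gabrb2l overlapped between groups. The gamma gene gabrg3 had a log2 fold change of -0.15 ± 0.19 (SE). The pi gene gabrp and the zeta gene gabrz had -0.15 ± 0.14 and 0.02 ± 0.18 (SE).

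The rho genes encode GABA receptor subunits best known from the bipolar cells of the retina, and they held the widest spread of the GABA-A genes. gabrr1 (gene ID 568984) had 10.1, 13.9 and 14.5 CPM in TWP 700 pools and 10.8, 8.49 and 7.56 CPM in control pools. Control replicate 1 lay above TWP 700 replicate 1, so the groups overlap, and the log2 fold change was 0.52 ± 0.17 (SE, 95% interval 0.14 to 0.90, edgeR adjusted p = 0.0674). It passed the threshold as higher without TWP 700 replicate 1 (log2 fold change 0.67, adjusted p = 0.0278), without that pool and control replicate 2 together (0.63, adjusted p = 0.00718), and when libraries were scaled by their totals (adjusted p = 0.0347). Over the 18 alternatives its adjusted p ran from 0.00718 to 0.221. The gene gabrr3a (gene ID 570876) lay the other way, with 0.878, 0.848 and 0.342 CPM in TWP 700 pools and 1.35, 1.28 and 1.5 CPM in control pools. The groups do not overlap, but the values rest on 13 to 39 reads per TWP 700 pool and 47 to 65 per control pool. Its log2 fold change was -0.98 ± 0.35 (SE, 95% interval -1.75 to -0.22, edgeR adjusted p = 0.0816), and it passed the threshold as lower in DESeq2 (adjusted p = 0.0475) and without both pools named above (log2 fold change -1.23, adjusted p = 0.0346), with a range of 0.0346 to 0.202 over the alternatives. With these calls the receptor genes held 1 higher and 1 lower without TWP 700 replicate 1, where 5.67% and 5.38% of all genes were called. They held 1 higher and 1 lower with library totals, where 11.8% and 3.65% of all genes were called, 15.5% in all. They held 1 higher and 2 lower without both pools, where 11.1% and 10.9% of all genes were called, 22.0% in all. gabrr2a had a log2 fold change of 0.33 ± 0.16 and gabrr2b of 0.19 ± 0.47 (SE). gabrr1 and gabrr3a are described because their adjusted p came closest to the threshold, a choice made after their values were seen.

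The G protein-coupled receptors for GABA did not separate. GABA-B receptors pair a gabbr1 subunit, which binds GABA, with gabbr2, which couples to the G protein. The most abundant gene, gabbr1b (gene ID 558708, mean 5.28 TPM), had 17.5, 15.1 and 14.9 CPM in TWP 700 pools and 17.8, 18.1 and 15.9 CPM in control pools. These values overlap, and the log2 fold change was -0.13 ± 0.12 (SE, edgeR adjusted p = 0.534). gabbr1a and gabbr2 had 0.11 ± 0.15 and 0.19 ± 0.15 (SE).

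AMPA receptors carry most fast excitation, and the subunit from gria2 limits their passage of calcium. The 8 AMPA genes had a narrower range of log2 fold changes than any other family of 5 or more genes, at -0.03 to 0.10. Of these genes 8 of 8 had a 95% interval within 1.5-fold, where 39.0% of all genes did. The lowest mean of an AMPA gene over the 6 pools was 9.91 CPM, against 0.63 to 6.57 CPM in those other families. The part of level in this narrow range was not tested. edgeR, DESeq2 and limma-voom each called 0 of the AMPA genes, and 0 had an unadjusted p under 0.05. The most abundant, gria2a (gene ID 170450, mean 11.6 TPM), had 45.7, 42.0 and 40.0 CPM in TWP 700 pools and 45.6, 37.8 and 35.9 CPM in control pools. The pools of both groups overlap, and the log2 fold change was 0.10 ± 0.12 (SE, edgeR adjusted p = 0.637). gria3a, gria4b and gria2b, the next in level, had log2 fold changes of -0.03 ± 0.11, 0.08 ± 0.11 and 0.08 ± 0.11 (SE).

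NMDA receptors need a grin1 subunit, which binds glycine or D-serine, and grin2 subunits, which bind glutamate. grin1b (gene ID 100005675) was the most abundant receptor gene of all, at a mean of 30.3 TPM. It had 117, 123 and 118 CPM in TWP 700 pools and 141, 122 and 115 CPM in control pools. The groups are not separated, with a log2 fold change of -0.08 ± 0.12 (SE, edgeR adjusted p = 0.717). The other copy grin1a had 79.0, 75.1 and 69.7 CPM in TWP 700 pools and 75.2, 71.2 and 63.5 CPM in control pools, with a log2 fold change of 0.09 ± 0.11 (SE). Of the grin2 genes, grin2bb lay higher in every TWP 700 pool, at 20.2, 14.7 and 15 CPM against 14.1, 14.0 and 13.2 CPM in control pools, but did not pass the test (log2 fold change 0.27 ± 0.14, edgeR adjusted p = 0.226). TWP 700 replicate 1 was the highest of the 6 pools. The least abundant genes of the family, among them grin3bb and grin2da, had SEs of 0.30 and 0.24, and their 95% intervals reached beyond 1.5-fold.

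Kainate receptors act on both sides of the synapse, and grik4 and grik5 encode subunits that need a grik1, grik2 or grik3 partner. The most abundant, grik2 (gene ID 556013, mean 4.05 TPM), had 12.5, 14.7 and 12.7 CPM in TWP 700 pools and 16.6, 14.8 and 12.7 CPM in control pools. The ranges overlap, and the log2 fold change was -0.15 ± 0.14 (SE, edgeR adjusted p = 0.508). The kainate genes differed in direction. grik5 lay higher in every TWP 700 pool, at 11.0, 9.91 and 11.4 CPM against 9.07, 8.39 and 8.10 CPM in control pools (log2 fold change 0.34 ± 0.13, edgeR adjusted p = 0.0996). grik1a lay lower in every TWP 700 pool, at 8.22, 8.85 and 8.20 CPM against 10.2, 9.56 and 9.36 CPM in control pools (log2 fold change -0.20 ± 0.12, edgeR adjusted p = 0.309). Neither passed the test.

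The delta receptors resemble glutamate channels in sequence but are known as synaptic organizers. Of these, grid1a had 4.57, 5.16 and 3.99 CPM in TWP 700 pools and 4.57, 5.25 and 4.41 CPM in control pools, values that overlap. Its log2 fold change was -0.05 ± 0.17, and that of grid1b was -0.07 ± 0.18 (SE).

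Of the 12 metabotropic genes 0 were called by edgeR, DESeq2 or limma-voom, and 0 had an unadjusted p under 0.05. Group I couples to calcium release, and groups II and III lower cyclic AMP. The median log2 fold changes of the 4, 3 and 5 genes of groups I to III were 0.05, 0.14 and -0.01. The most abundant, grm2b (gene ID 564461, mean 6.27 TPM), had 19.9, 20.6 and 18.1 CPM in TWP 700 pools and 19.6, 18.8 and 15 CPM in control pools. These values overlap, and the log2 fold change was 0.14 ± 0.13 (SE, edgeR adjusted p = 0.534). grm6b, a copy of the receptor by which ON bipolar cells of the retina read photoreceptor glutamate, lay lower in every TWP 700 pool, at 9.01, 7.84 and 8.07 CPM against 9.01, 9.04 and 10.2 CPM in control pools. The highest TWP 700 pool and the lowest control pool differed by less than the last digit given here, and the difference did not pass the test (log2 fold change -0.18 ± 0.13, edgeR adjusted p = 0.404).

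By level, the most abundant receptor genes after grin1b were gabrd (19.0 TPM), grin1a (18.9 TPM), glrbb (16.8 TPM) and gria2a (11.6 TPM), as means of 6 pools, and the lowest was gabrr2b (0.383 TPM). Neighbours in this order mostly overlap: the ranges of gabrd, grin1a and glrbb over the 6 pools cross each other. By summed TPM, GABA-A genes made up 30.0% of the receptor transcripts in TWP 700 and 28.6% in control pools. NMDA genes made up 19.4% in TWP 700 and 19.9% in control pools, AMPA genes 17.8% in TWP 700 and 18.1% in control pools, and glycine genes 12.28% in TWP 700 and 12.21% in control pools. Metabotropic genes made up 9.97% in TWP 700 and 10.0% in control pools. The rest were kainate genes (4.69% in TWP 700, 5.04% in control pools), GABA-B genes (3.85% in TWP 700, 3.87% in control pools) and delta genes (2.07% in TWP 700, 2.27% in control pools).

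**Figure D3:**
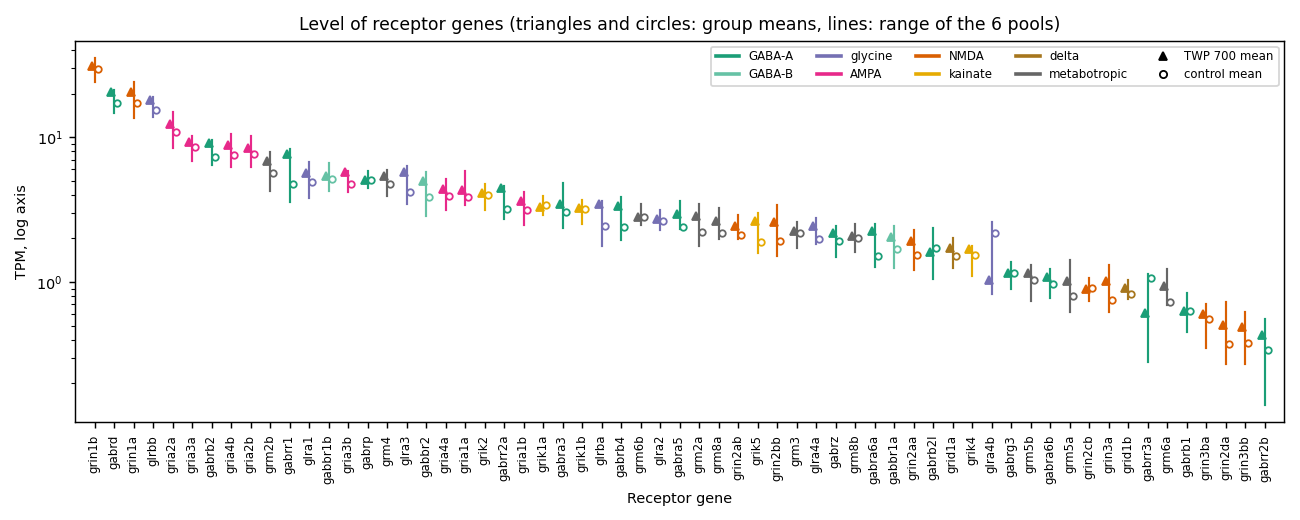
Level of 61 receptor genes in deposited TPM on a log axis, from the highest to the lowest mean of 6 pools. Triangles are TWP 700 means, circles are control means, lines span the 6 pools and colours give the family. Levels run from 30.3 TPM for grin1b to 0.383 TPM for gabrr2b, and the triangle lies well below the circle for glra4b and gabrr3a.

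With all 6 pools, the sums of the families also overlap between the groups on both scales. This turned on single pools in some families, by a comparison added after seeing the data. With a pool left out, groups separate more easily. The share of all genes separated in this way is not given, and no conclusion is drawn from the separations. Without control replicate 1, GABA-A, glycine and AMPA genes lay higher in every TWP 700 pool on the CPM scale, at 173 to 185 against 154 to 158 CPM in control pools for GABA-A genes. On the TPM scale GABA-A, glycine and NMDA genes did so without control replicate 1, and GABA-A and glycine genes without TWP 700 replicate 3. The 67 genes together came to 893 ± 19.4 CPM in TWP 700 pools and 864 ± 60.3 CPM in control pools (SD, n = 3 each). On the TPM scale they came to 359, 306 and 298 in TWP 700 pools and 318, 285 and 230 in control pools. The highest pool was TWP 700 replicate 1 and the lowest control replicate 3. GABA-A genes summed to 179 ± 6.03 CPM in TWP 700 and 163 ± 13.0 CPM in control pools, and NMDA genes to 254 ± 8.69 CPM in TWP 700 and 251 ± 19.3 CPM in control pools. Within the GABA-A and glycine families, the summed TPM of the beta, delta, rho and glycine beta classes lay higher in every TWP 700 pool, by ratios of 1.28, 1.19, 1.4 and 1.21. These 4 classes overlap on the TMM-scaled CPM with all 6 pools. On that scale the beta, rho and glycine beta classes lay higher in every TWP 700 pool without control replicate 1, and the delta, rho and glycine beta classes did so without TWP 700 replicate 1. These sums leave out genes without a receptor symbol. Among them LOC100330554, described as rho-1-like, had means of 8.29 CPM in TWP 700 and 11.0 CPM in control pools. LOC561083, described as rho-3-like, had 2.00 and 2.58 CPM, and LOC101883326, described as beta-2-like, had 2.51 and 2.25 CPM. edgeR called none of them (adjusted p = 0.107, 0.319 and 0.726). Family medians of the log2 fold change were 0.08 for GABA-A, 0.07 for glycine, 0.08 for AMPA and 0.12 for NMDA genes, which stayed above 0 in every alternative fit. Those of the other families crossed 0 in some: 0.11 for GABA-B (-0.0076 without control replicate 3), 0.05 for metabotropic (-0.00023 without TWP 700 replicate 1), -0.12 for kainate (0.0060 without TWP 700 replicate 1, 0.0050 with library totals, 0.04 without TWP 700 replicate 1 and control replicate 2 together) and -0.07 for delta (0.03 without control replicate 2, 0.07 with library totals, 0.03 without those 2 pools together).

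**Figure D4:**
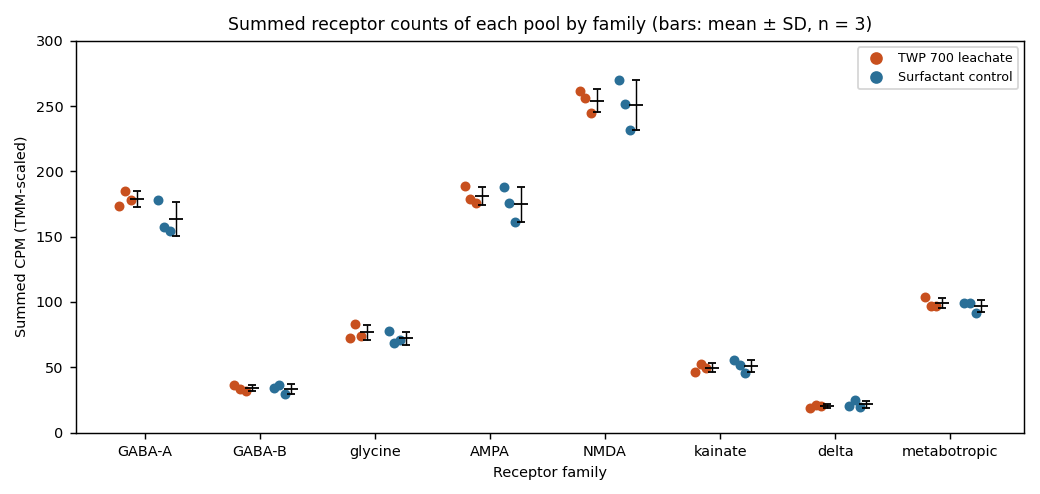
Summed level of the receptor genes of each family in each pool, in TMM-scaled CPM, with TWP 700 pools in orange to the left of control pools in blue. Bars are the mean ± SD of 3 pools. With all 6 pools the groups overlap in all 8 families, for example 244 to 261 CPM in TWP 700 and 231 to 270 CPM in control pools for NMDA genes.

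Ratios between subunits that are known to shift with brain maturation in mammals overlap between the groups as well. The ratio of grin2a genes to grin2bb, the only grin2b gene taken by symbol, was 1.52, 1.98 and 1.66 in TWP 700 pools. In control pools it was 1.73, 1.97 and 2.09, in summed TPM. It leaves out LOC100334883 and LOC110438919, described as NMDA 2B and 2B-like. Their log2 fold changes were 0.75 ± 0.29 and 0.41 ± 0.16 (SE, edgeR adjusted p = 0.101 and 0.100). The ratio with these genes was not computed, and the other ratios too count only genes taken by symbol. The ratio of gria2 to gria1 genes was 2.64 ± 0.231 in TWP 700 and 2.64 ± 0.287 in control pools (SD, n = 3 each). The ratio of glra1 to the other glra genes was 0.471 ± 0.0861 in TWP 700 and 0.442 ± 0.0625 in control pools. GABA-A and glycine genes together stood to AMPA, NMDA and kainate genes as 1.01 ± 0.0625 in TWP 700 and 0.951 ± 0.0423 in control pools. With all 6 pools, none of these 4 ratios was separated by group on either scale. In 3 of them the overlap ended when 1 pool was left out, a comparison added after seeing the data. Groups separate more easily with fewer pools, and the share of all genes separated in this way is not given. No conclusion is drawn from these separations. Without TWP 700 replicate 2 the ratio of grin2a to grin2b lay lower in TWP 700 pools (1.52 to 1.66) than in control pools (1.73 to 2.09). Without control replicate 1 the ratio of gria2 to gria1 lay higher in TWP 700 pools (2.51 to 2.91) than in control pools (2.45 to 2.49) on the TPM scale alone. Without TWP 700 replicate 1 the inhibitory genes stood higher to the excitatory ones in TWP 700 pools (1.03 to 1.06) than in control pools (0.909 to 0.994).

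The a and b copies of a gene are set side by side here, with the limit that the values of near-identical copies are uncertain. Over 19 such pairs, the log2 fold change of the b copy minus that of the a copy was -1.35 for glra4, and its size was 0.018 to 0.39 in the other 18, with a median of 0.13. The next largest were gabra6 (-0.39), grm6 (-0.35) and glrb (-0.30). Levels of the copies differed within many pairs: the same copy was the higher in all 6 pools in 13 of the 19 pairs. By mean TPM gabrr2a stood 10.0-fold above gabrr2b, glrbb 5.68-fold above glrba, grm6b 3.41-fold above grm6a and grin1b 1.61-fold above grin1a.

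Genes that make and move the transmitters, anchor the receptors or answer to activity were tested in 6 lists, and their changes are given as log2 fold changes with the SE. Of these 134 genes 20 were called (14.9%, near the 15.2% of all genes), and 8 of these were called in all 17 refits at an adjusted p under 0.05. This share pools unlike lists. Called were 11 of 24 genes of glutamate synthesis and transport, 4 of 57 partners of glutamate receptors and 0 of 20 early genes. By direction, 7.87% of all genes tested were called higher and 7.29% lower. Of 13 genes of GABA and glycine synthesis, breakdown and transport 3 rose in TWP 700 and 0 fell, with a median log2 fold change of 0.20. slc32a1, the vesicular transporter of GABA and glycine, had 34.2, 33.0 and 29.5 CPM in TWP 700 pools against 22.8, 17.7 and 23.7 CPM in control pools (log2 fold change 0.59 ± 0.13, edgeR adjusted p = 0.0117). slc6a9, a glycine uptake transporter, rose by 0.45 ± 0.12 (adjusted p = 0.029), and abat, which breaks down GABA, by 0.37 ± 0.11 (adjusted p = 0.0497). The GABA synthesis genes gad1b and gad2 did not pass the test (0.13 ± 0.11 and 0.24 ± 0.14). Without control replicate 2 the list held 2 genes called higher, and without any other single pool it held 1.

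Glutamate synthesis and transport held the most calls, with 7 of 24 genes higher and 4 lower in TWP 700 and a median of -0.11. The glutamate uptake genes slc1a8b and slc1a2a rose by 0.96 ± 0.16 and 0.71 ± 0.12 (edgeR adjusted p = 0.003 and 0.00291). Every TWP 700 pool lay above every control pool for slc1a8b, at 12.3, 13.2 and 10.1 CPM against 6.19, 5.01 and 7.05 CPM. Of the same carrier family, slc1a7a fell by 1.15 and slc1a3a fell by 0.65 on the log2 scale (adjusted p = 0.00602 and 0.00366). slc1a3a had 42.3, 43.8 and 44.0 CPM in TWP 700 pools against 65.2, 62.1 and 77.2 CPM in control pools. slc1a3b and glsa, a glutaminase, were higher by 0.64 ± 0.12 and 0.56 ± 0.10 and, with the 4 genes above, were called in all 17 refits. Leaving out 1 pool left 4 or 5 genes higher and 2 to 4 lower. There were 4 higher without control replicate 3, TWP 700 replicate 1 or TWP 700 replicate 3. There were 2 lower without control replicate 1, control replicate 3, TWP 700 replicate 2 or TWP 700 replicate 3.

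Of 18 scaffolds and partners of inhibitory receptors 2 rose and 0 fell, with a median of 0.19: arhgef9b (0.52 ± 0.12, edgeR adjusted p = 0.0171), which encodes the gephyrin partner collybistin, and gphnb (0.46 ± 0.13, adjusted p = 0.0395), a gephyrin gene. Gephyrin anchors glycine and GABA-A receptors. The 2 of 18 are near the shares over all genes, of which 7.87% were called higher and 15.2% in either direction. The count was 0 without control replicate 3, TWP 700 replicate 1 or TWP 700 replicate 2, and 1 without control replicate 1 or TWP 700 replicate 3. Of 57 auxiliary subunits, scaffolds and partners of glutamate receptors 3 rose and 1 fell, with a median of 0.06. The scaffold genes shank1 and dlgap4a rose by 0.55 ± 0.15 and 0.45 ± 0.13 (adjusted p = 0.0314 and 0.0424), calls that were not held in every fit: 0 genes were higher without control replicate 3, TWP 700 replicate 1 or TWP 700 replicate 3, 1 without control replicate 1 or control replicate 2, and 2 without TWP 700 replicate 2. cacng5a, of the family of AMPA receptor auxiliary subunits, had 1.13, 0.848 and 1.5 CPM in TWP 700 pools against 5.15, 3.38 and 5.58 CPM in control pools. The groups do not overlap, and it fell by 2.03 on the log2 scale (SE 0.27, adjusted p = 0.00072), a call held in all 17 refits. Its copy cacng5b had a log2 fold change of -0.0027 ± 0.30 (SE).

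The neuronal chloride transporters, which set whether GABA and glycine inhibit or excite, did not pass the test: slc12a5b had a log2 fold change of -0.02 ± 0.11 and slc12a2 of 0.07 ± 0.11 (SE). edgeR, DESeq2 and limma-voom each called 0 of these 2, and 0 had an unadjusted p under 0.05.

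**Figure D5:**
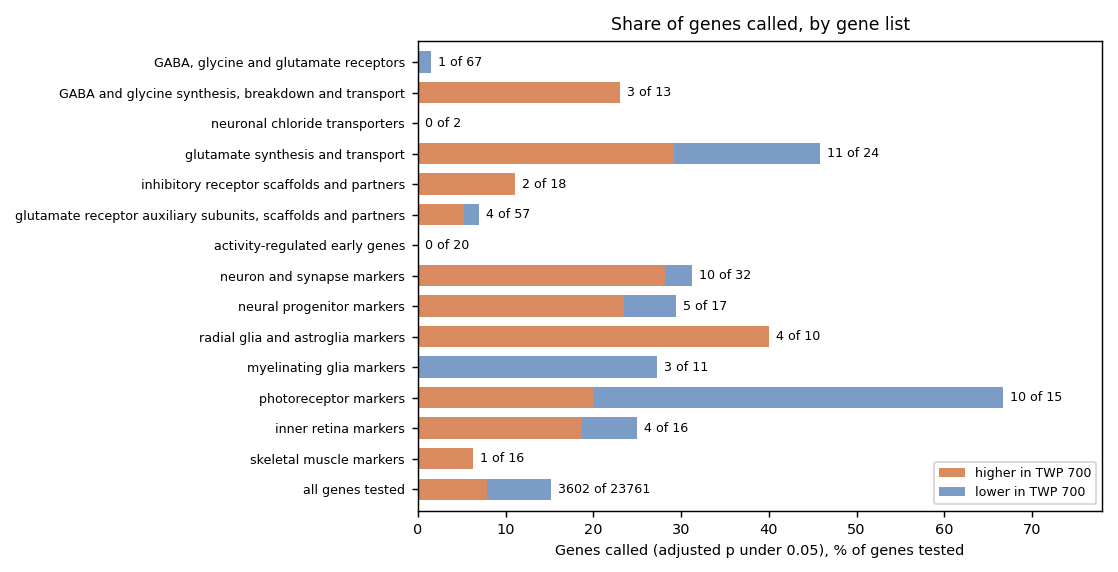
Percent of the tested genes of each list called at an adjusted p under 0.05, higher in TWP 700 in orange and lower in blue, with the number called beside each bar. The receptor genes at the top reach 1.49%, against 15.2% for all genes tested at the bottom.

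Markers of the cells that carry these receptors were given the same test, with changes again as log2 fold changes and SE. Of 32 neuron and synapse markers 9 were called higher and 1 lower, where 7.87% of all genes tested were called higher and 7.29% lower. Their median log2 fold change was 0.18, beside 0.07 for the receptor genes. The most abundant marker, snap25a, had 159, 128 and 124 CPM in TWP 700 pools and 143, 121 and 137 CPM in control pools, with overlap (0.04 ± 0.13). gap43, a growth cone gene, was higher by 0.73 ± 0.19 (edgeR adjusted p = 0.0262) and stxbp1b, of vesicle release, lower (-0.43 ± 0.11, adjusted p = 0.0239). The number higher depended on single pools: it was 2 without control replicate 1, TWP 700 replicate 1 or TWP 700 replicate 3, 3 without control replicate 3, and 7 without control replicate 2 or TWP 700 replicate 2. The number lower was 0 without control replicate 1, TWP 700 replicate 1 or TWP 700 replicate 2. TWP 700 replicate 1 had the highest marker level, with a median log2 deviation of 0.29 for the neuron markers and 0.05 for the receptor genes.

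The shares of all genes to set beside each list below are 15.2% called, 7.87% higher and 7.29% lower. Of the other marker lists, 4 of 17 genes listed as neural progenitor markers were higher and 1 lower. The largest rise was that of pcna (1.28 ± 0.14, edgeR adjusted p = 0.00025). In pools of whole larvae, which cells the pcna reads came from was not tested. The median log2 fold change of the 17 genes was 0.27, with 10 genes above 0 and 7 below. They summed to 205 to 256 TPM in TWP 700 pools and 124 to 159 TPM in control pools, of which pcna alone made up 93.1 TPM in TWP 700 and 33.5 TPM in control pools, as means. Of 10 radial glia and astroglia markers 4 were higher, cyp19a1b most (1.88 ± 0.32, adjusted p = 0.00288). The list had a median log2 fold change of 0.37, with 6 genes above 0 and 4 below. It summed to 556 to 713 TPM in TWP 700 pools and 447 to 559 TPM in control pools, ranges that overlap. It shares slc1a3b, slc1a2b and glula with the list of glutamate synthesis and transport. The progenitor markers higher were 2 without control replicate 1, control replicate 3, TWP 700 replicate 2 or TWP 700 replicate 3, and 0 were lower without control replicate 1, control replicate 3 or TWP 700 replicate 2. The glial markers higher were 2 without control replicate 3 or TWP 700 replicate 2. Of the myelinating glia markers mpz was lowest (-1.02 ± 0.18, adjusted p = 0.00383), with 2 to 4 genes lower when 1 pool was left out. Among photoreceptor markers opn1mw1 was lower (-1.70 ± 0.13, adjusted p = 2.79e-05) and arr3b higher (0.95 ± 0.10, adjusted p = 0.000221). Among the genes listed as inner retina markers, cabp5a was higher (1.44 ± 0.14, adjusted p = 0.000128) and rlbp1a lower (-0.38 ± 0.11, adjusted p = 0.0416), with 0 genes of the list lower when any pool but control replicate 2 was left out. The median over the list was 0.03, with 8 genes above 0 and 8 below. The genes of this list summed to 314 to 335 TPM in TWP 700 pools and 153 to 233 TPM in control pools. Of these sums rlbp1b alone made up 152 TPM in TWP 700 and 56.1 TPM in control pools, as means. That gene did not pass the test (1.23 ± 0.63, adjusted p = 0.278), and control replicate 2 was its lowest pool at 20.01 CPM. Of 16 skeletal muscle markers 1 was called higher, acta1b (0.94 ± 0.16, adjusted p = 0.00315), and 0 lower. It went against most of the list, whose median log2 fold change was -0.20, with 4 genes above 0 and 12 below. The 16 genes summed to 104173 to 121408 TPM in TWP 700 pools and 107065 to 123274 TPM in control pools, ranges that overlap. The part of these tissue markers in the receptor results was not tested.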

How the data were processed

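RNA was measured in 6 pools of larvae, 3 per group. Per the labels' protocols, RNA depleted of ribosomal RNA was made into stranded total RNA libraries. Per the submitters' processing notes, the tools were StringTie 2.1.3b, HISAT2 and DESeq2, and the build was GRCz11; their roles are not stated. The use of strand in counting is not stated in the labels or headers, and values of overlapping, antisense and near-identical genes, such as a and b copies, are therefore uncertain. Values in 3 units were deposited by the authors for each gene and sample, per the file headers: counts of reads, TPM and FPKM. The deposited FPKM values served only to derive a relative gene length. Each gene in the table had at least 1 read in every sample, so genes without a read in 1 sample were not seen.

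The counts entered edgeR 4.0.16 (R 4.3.3), with filterByExpr by group, TMM factors, and its quasi-likelihood F test (robust) of TWP 700 over control, adjusted by Benjamini-Hochberg over 23761 genes. An SE is the size of the log2 fold change divided by the square root of F. The 95% intervals use the test's degrees of freedom and are not adjusted for the number of genes. Pools of 1 group differed beyond counting noise, with a chi-square of at least 8.53 per degree of freedom. Per family, the rule named the called genes and the most abundant one, and per list up to 2 called genes per direction (1 for markers, with the most abundant). Further genes given as values fall outside this rule and were picked with their values known. The receptor genes, the lists and the rule were chosen with earlier results of these data known. Of 274 listed symbols 249 matched the table. Alternatives tried were limma-voom (limma 3.58.1), DESeq2 1.42.0, scaling by RLE, upper quartile or library totals, 2 other filters, an adjusted p under 0.01, the test without its robust option, removal of a gene length trend, the replicate number as a block, each pool left out, and the 2 pools that stood apart left out together. Some genes that the rule took or named are counted in their family but not reported here one by one.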

Additional observations from a re-analysis of the deposited data

How the results depend on the processing

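Scaling by library totals moved the all-gene median log2 fold change to 0.13. Under it 2809 genes were called higher and 868 lower, 1 receptor gene was higher (gabrr1), 2 receptor classes held a call and the receptor median was 0.20, against 0.13 over all genes. DESeq2 called 2 receptor genes lower, in 2 classes. An adjusted p under 0.01 left 796 genes higher, 692 lower and 7 in the related lists. Without control replicate 2 and TWP 700 replicate 1 together, 2648 genes were higher and 2606 lower, 1 receptor gene was higher and 2 lower, in 2 classes, 34 related genes were called and 1 subunit ratio did not overlap; 22.0% of all genes were called in that fit. Leaving out each pool in turn gave 970 to 2063 genes higher and 896 to 1996 lower, 0 to 1 receptor genes higher, 1 lower, 1 to 2 classes with a call, 8 to 15 related genes, 0 to 1 subunit ratios apart (on the TPM scale, added after seeing the data) and a receptor median of 0.0043 to 0.092. The cause of these differences was not tested. With the replicate number as a block, 1317 genes were higher and 1248 lower, 0 receptor genes higher and 1 lower, and 12 related genes were called. Same-numbered pools had correlations of their deviations of -0.0465, -0.101 and 0.0307, and other pairs of pools had -0.102 to 0.118. These values show no pairing by number, but with 3 pools per group they cannot exclude a shared batch, and the labels give none. Depth limits the rarest genes most: gabrr2b, with 12 to 40 reads per pool, had an interval of -0.83 to 1.22 on the log2 scale, reaching beyond 2-fold. Intervals reached beyond 1.5-fold in 19 of 67 receptor genes. Not all of these were wide intervals or rare genes: that of grik5 ran from 0.057 to 0.61 and was counted because it lay off centre.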

Other observations

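Neurons switch on activity-regulated early genes within minutes of firing. Which cells of the whole larvae the reads of these genes came from, and why, was not tested. The genes of this list set TWP 700 replicate 1 apart. Their summed level was 1003, 247 and 256 TPM in TWP 700 pools and 356, 310 and 307 TPM in control pools, the first value being that of TWP 700 replicate 1. The early gene fosab had 214, 46.9 and 45.4 CPM in TWP 700 pools and 67.9, 64.8 and 58.4 CPM in control pools. Of 20 early genes tested 0 were called by edgeR, DESeq2 or limma-voom, and 0 had an unadjusted p under 0.05. Without TWP 700 replicate 1, 5 were called lower, where 5.38% of all genes were. Without that pool and control replicate 2 together 11 were called lower, where 10.9% of all genes were. With the replicate number as a block, 1 early gene was called higher.

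A further 14 genes carry no receptor symbol but are described in the table as subunits of these receptors. They were chosen by that description after the data were seen. edgeR called 0 of them, and 5 had an unadjusted p under 0.05, 4 higher and 1 lower, where 29.8% of all genes did. The groups did not overlap in 3 of the 14, all higher in TWP 700, where 35.1% of all genes were separated. The lowest adjusted p was that of LOC100149482, described as NMDA 2D-like (log2 fold change 0.50 ± 0.17, SE, edgeR adjusted p = 0.0675). The median log2 fold change of the 14 was 0.00065, with 7 above 0 and 7 below, and a range of -0.60 to 0.93.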
